A study of Mus musculus with 235 samples.

Results

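The Serpina genes considered here are 9 members of the clade A serpins: Serpina1c, Serpina1d, Serpina1e, Serpina3k, Serpina3m, Serpina3n, Serpina4-ps1, Serpina6 and Serpina10. They were chosen by symbol, and every probe set that the array annotation gives to 1 of these symbols alone was taken, which gave 7 of the 44661 probe sets tested. Those 7 probe sets belonged to 5 genes, of 18146 genes with a probe set of their own, with 3 for Serpina4-ps1 and 1 each for Serpina1c, Serpina3n, Serpina6 and Serpina10. Serpina1d was listed only in a probe set that also names Serpina1a, and Serpina1e only in a probe set that also names Serpina1c and Serpina1b, so neither has a value of its own here. No probe set of Serpina3k or Serpina3m was listed in the annotation used, and these 2 genes were not analysed here. The symbols were proposed with earlier results of these arrays in view, so their mean changes under isoniazid and their differences between strains are given as descriptions.

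RNA of the left liver lobe was measured on Affymetrix mouse expression arrays, 1 array per animal, in female mice of 31 inbred strains that were 8 to 10 weeks old when the study began. The 111 isoniazid arrays came from animals given 100 mg/kg isoniazid, an antituberculosis drug, by daily oral gavage over 3 days. The 124 vehicle arrays came from animals of the same strains given sterile water. Livers were taken 24 hours after the last dose. Each strain had 4 vehicle animals, and 22 strains had 4, 5 had 3 and 4 had 2 isoniazid animals, since animals that died were left out by the submitters, so the isoniazid groups are survivors. The submitters coded 13 strains as showing isoniazid-induced steatosis, here the steatosis strains, and 18 as not. The mice carried no engineered allele that the labels name.

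Serpins are protease inhibitors that trap their target protease through a conformational change of a reactive loop, and clade A holds several that hepatocytes secrete into the blood. Serpina1 genes encode alpha-1 antitrypsin, the inhibitor of neutrophil elastase, which is 1 gene in humans and a set of near-identical copies in the mouse. The Serpina3 genes are the mouse relatives of alpha-1 antichymotrypsin, and Serpina3n is known as an acute phase gene. Serpina6 encodes corticosteroid-binding globulin, a serpin that does not inhibit a protease and carries glucocorticoids in plasma, and Serpina10 encodes the protein Z-dependent inhibitor of clotting factor X. Serpina4-ps1 is annotated as a transcribed pseudogene. All 9 genes lie on mouse chromosome 12, where their order along the chromosome is Serpina10, Serpina6, Serpina1d, Serpina1c, Serpina1e, Serpina4-ps1, Serpina3k, Serpina3m and Serpina3n (gene table of assembly GRCm38.p6).

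The copies of alpha-1 antitrypsin share a stretch of their promoters, shown here as a description of how alike the copies are. Probe sequences were not compared, so the stretch does not show which array probes the copies share. Of the 9 genes, 4 had a RefSeq promoter window of 250 bases before to 50 after the annotated start: the 3 Serpina1 genes and Serpina3n. In each Serpina1 window a stretch of 66 bases surrounds the letters GTTAAT, given in capitals, which are one arm of the motif named for the liver factor HNF1. The 3 stretches, on the minus strand of chromosome 12 (RefSeq, GRCm38.p6), are chr12:103904934-103904999 for Serpina1c, chr12:103773606-103773671 for Serpina1d and chr12:103956932-103956997 for Serpina1e.
Serpina1c: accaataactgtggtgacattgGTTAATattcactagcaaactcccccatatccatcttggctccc
Serpina1d: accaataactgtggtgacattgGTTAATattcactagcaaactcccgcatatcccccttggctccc
Serpina1e: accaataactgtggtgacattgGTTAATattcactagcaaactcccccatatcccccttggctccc

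The Serpina1c stretch differed from that of Serpina1d at 3 of 66 bases and from that of Serpina1e at 2, and those of Serpina1d and Serpina1e differed at 1. The letters begin 27 bases before the annotated start in Serpina1c, 16 in Serpina1d and 78 in Serpina1e, so the starts annotated for the 3 copies fall at different places around the same stretch. Aligned over their whole windows, the promoters were less alike: Serpina1d and Serpina1c were identical at 85.2% of aligned columns, Serpina1c and Serpina1e at 67.5% and Serpina1d and Serpina1e at 63.5%, with gaps counted as differences. On either strand, GTTAAT was found in 7.1% of 32851 promoter windows of the same length, in all 3 Serpina1 windows and not in that of Serpina3n. The letters TGTTCT, one arm of the glucocorticoid receptor motif, were found in each of the 4 windows and in 19.0% of all windows. TTGCNNAA, the letters searched for C/EBP, occurred in the Serpina1d and Serpina1e windows and in 10.8% of all. TTCNNNGAA for STAT factors and TATAAA occurred in none of the 4, against 8.3% and 13.6% of all windows. Within each window 0 of these matches overlapped another, and a match is a description of the letters only.

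Values are log2 expression per probe set, deposited by the authors after RMA, a method that subtracts background, brings all arrays to the same distribution and combines the probes of each set into 1 value. Levels of different probe sets are not set against each other. Array medians ran from 3.96 to 4.21. No pair of arrays was identical, arrays of 1 group correlated with each other at r from 0.954 to 0.993, and all 235 arrays correlated best with the other arrays of their own strain over the 2000 most variable probe sets. The arrays carried 10 scan dates, with 22 to 24 arrays each, and 21 arrays (10 isoniazid and 11 vehicle) had a narrow spread of values. As for the tissue label, the hepatocyte genes Alb and Apoa1 averaged 14.42 and 14.25 in isoniazid strain means, against 14.43 and 14.23 in vehicle strain means. In pieces of whole liver, fewer cells of a type and less RNA per cell cannot be told apart.

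Over the 31 strains, Serpina4-ps1 fell most among the members. Of its 3 probe sets, told apart here by their suffixes _a_at, _at and _x_at, the brightest was _a_at, which is meant where no set is named. It averaged 3.19 ± 0.78 in isoniazid and 4.60 ± 1.77 in vehicle strain means (SD, n = 31 strains), a mean change of -1.41 ± 1.23, with 30 of 31 strains lower. The isoniazid means of 28 strains and the vehicle means of 16 lay below the lowest array median, 3.96, where little room is left for a fall, so the size of the change is limited by the low end of the scale. Serpina6 fell by a mean of 0.45 ± 0.67 on the log2 scale (lower in 23 of 31 strains), with a median change of -0.19. Serpina3n rose by a mean of 0.17 ± 0.30 (higher in 24). Serpina10 changed by 0.07 ± 0.27 and Serpina1c by -0.05 ± 0.09, and neither passed the test. With limma over the 31 strain differences and an adjusted p under 0.05 as the call, 1 of the 7 member probe sets was called higher, where 7.28% of all probe sets were, and 4 were called lower, where 6.91% were. These calls come from the contrast in view when the symbols were proposed, so nothing is read from them. The median change of the 7 member probe sets was -0.45, and that of all probe sets was 0.00034. Serpina4-ps1 counts 3 times in these calls and in the member median, once for each of its probe sets. With 1 probe set per gene, 1 member was called higher and 2 lower, against 1848 and 1788 over all genes.

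**Figure D1:**
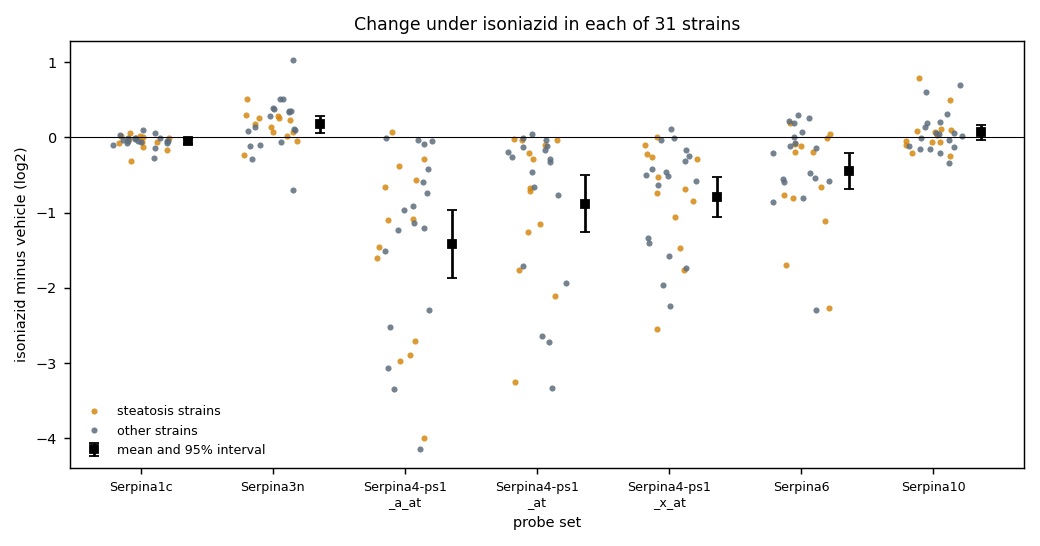
Isoniazid minus vehicle difference of the strain means (log2, vertical axis) for the 7 member probe sets (horizontal axis). Each point is 1 of 31 strains, coloured by steatosis status, and squares with bars are the mean over strains and its 95% interval. The 3 Serpina4-ps1 probe sets reach furthest down, Serpina1c stays close to 0 and the strains of both status groups intermingle.

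The spread of Serpina4-ps1 over strains was wide in vehicle animals and narrower after isoniazid. Vehicle strain means ran from 2.72 to 8.42 with a median of 3.93, and isoniazid strain means from 2.48 to 6.12 with a median of 2.86. KK/HIJ had the highest vehicle mean, 8.42 ± 0.72, followed by SEA/GnJ at 8.14 ± 1.85, NOR/LtJ at 7.78 ± 1.94, NOD/LtJ at 7.44 ± 1.26, NON/LtJ at 6.96 ± 1.02 and CBA/J at 6.81 ± 1.25 (SD, n = 4 animals each). The animals of neighbouring strains in the order overlapped in all 30 neighbouring pairs. At the low end stood PL/J at 2.79, A/J at 2.77, C57Bl/6J at 2.76 and BALB/cJ at 2.72, below the median of every array. Apart from the highest and lowest strains and those with the largest rise and fall, strains are named after their values were seen.

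NOD/LtJ showed the largest difference. Its isoniazid animals had 4.10, 2.53, 3.38 and 3.21, and its vehicle animals had 8.47, 8.51, 5.95 and 6.85. The groups did not overlap, and the means differed by -4.14, with the isoniazid mean of 3.31 at the low end of the scale. NOR/LtJ, the related strain, had 2.70, 4.83, 3.86 and 3.77 after isoniazid and 7.81, 10.24, 5.51 and 7.55 after vehicle. These groups did not overlap either, although the vehicle animals differed widely among themselves. KK/HIJ kept the highest level under isoniazid, with 6.57, 6.38, 4.49 and 7.06, against 8.36, 9.20, 8.65 and 7.47 in its vehicle animals. In BALB/cJ, the 1 strain with a higher isoniazid mean, the values were 2.36, 2.88, 2.96 and 2.97 after isoniazid and 2.82, 2.44, 2.80 and 2.83 after vehicle, which overlap.

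**Figure D2:**
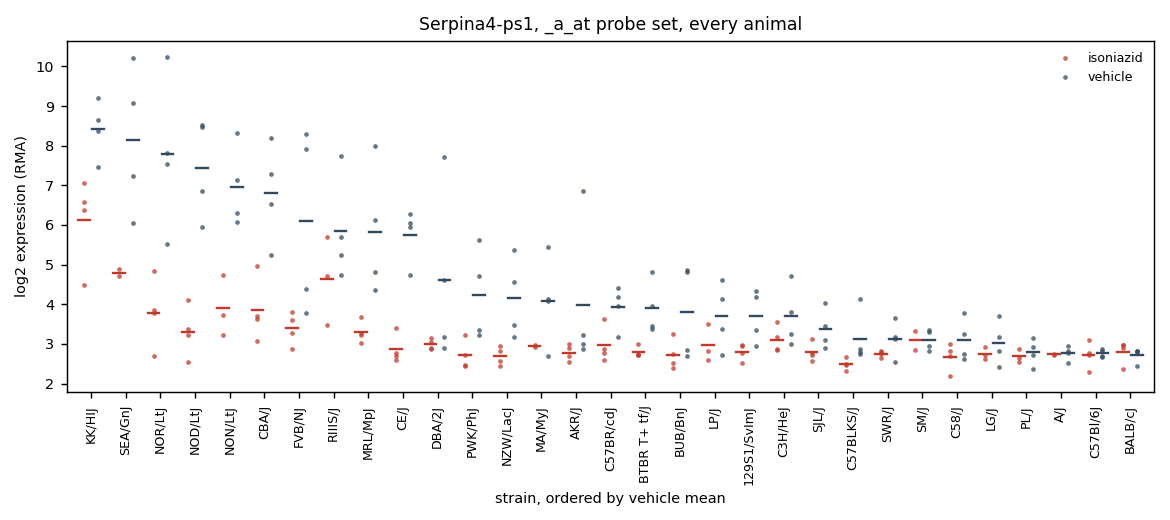
Log2 level of Serpina4-ps1 (_a_at probe set, vertical axis) in every animal of 31 strains ordered by vehicle mean (horizontal axis), with isoniazid animals left of vehicle animals and bars at the group means. Vehicle means descend from 8.42 in KK/HIJ to 2.72 in BALB/cJ, and isoniazid means lie between 2.48 and 6.12.

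Isoniazid and vehicle animals of the strain did not overlap, with isoniazid lower, in 12 of 31 strains, and with isoniazid higher in 0. Over all pairs of probe set and strain, 3.93% did so with isoniazid lower and 4.28% with isoniazid higher. Within strains, limma called the _a_at set lower in 6: CBA/J, CE/J, NOD/LtJ, NON/LtJ, NOR/LtJ and SEA/GnJ. The _at and _x_at sets were each called lower in 5 strains. CE/J did not pass in the _at or the _x_at set (limma adjusted p 0.672 and 0.669). NON/LtJ did not pass in the _x_at set (0.202), and PWK/PhJ passed in that set alone (0.0216). When animals of 1 number were left out of every group, the _a_at set was called in 2 to 4 strains. It was called in 2 without the animals numbered 1 and in 3 without those numbered 4. Over all probe sets and strains, 0.417% of pairs were called lower and 0.786% higher. The change differed between strains by limma's test of the strain by isoniazid interaction, with F = 3.59 and an adjusted p of 4.72e-06. Since strains with low vehicle levels have little room to fall, this difference in change cannot be told apart from the difference in vehicle level, and strain differences were in view when the symbols were proposed. On each of the 10 scan dates, the strains with arrays of both treatments (1 to 6 strains a date) had a lower isoniazid mean, by -3.05 to -0.39, and with scan date as a term the change was -1.41. The -3.05 came from the date where RIIIS/J was the only strain with both treatments, and the other dates gave -2.58 to -0.39. The second vehicle animal of RIIIS/J stood apart, as given below.

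The 3 probe sets of Serpina4-ps1 ordered the strains alike. Across the 31 vehicle strain means, the _a_at set correlated with the _at set at r = 0.97 and rho = 0.94 and with the _x_at set at r = 0.98 and rho = 0.96, and the other two sets correlated at r = 0.96 and rho = 0.90. Across the 31 changes r was 0.94, 0.95 and 0.92 and rho 0.84, 0.93 and 0.81, for the 3 pairs in the same order. Across isoniazid strain means r was 0.93, 0.92 and 0.91, with rho of 0.62, 0.59 and 0.72, where most strains are at low levels. Of these 9 pairs, each r had an adjusted p of 1e-05 (two-sided permutation test with 100000 resamples), the smallest these resamples can give, and adjusted p for rho ran up to 0.0006. Leaving out the 2 strains farthest from the median kept r at 0.95 or above for vehicle means, 0.88 or above for changes and 0.79 or above for isoniazid means.

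The sizes of the change differed between the sets. The _at set averaged 2.78 ± 0.37 in isoniazid and 3.66 ± 1.29 in vehicle strain means, a change of -0.88 ± 1.03. The _x_at set, whose suffix marks probes that may also match other transcripts, averaged 2.29 ± 0.27 in isoniazid and 3.08 ± 0.88 in vehicle strain means, a change of -0.79 ± 0.72. Both had lower isoniazid means in nearly the whole panel (30 and 29 of 31 strains), and their interaction F was 3.61 and 2.50 (limma adjusted p 4.19e-06 and 0.00262). The wild-derived strain PWK/PhJ changed by -1.51 in the _a_at set and by -1.41 in the _x_at set, but by -0.12 in the _at set. It was not alone, since BTBR T+ tf/J changed by -1.10 in the _a_at, -0.74 in the _x_at and -0.10 in the _at set. Their _at vehicle means, 2.91 in PWK/PhJ and 2.80 in BTBR T+ tf/J, lay below the lowest array median, 3.96. So did their _x_at vehicle means, 3.39 in PWK/PhJ and 3.05 in BTBR T+ tf/J. Why the sets differed in these strains was not tested, and probe sequences were not compared.

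**Figure D3:**
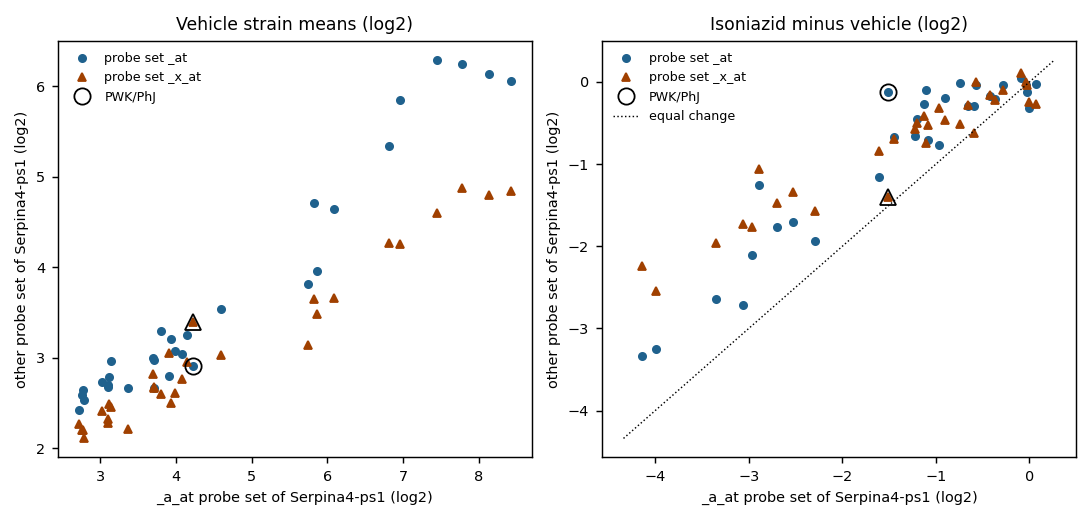
Strain means of 2 probe sets of Serpina4-ps1 (vertical axes, log2) against the _a_at set (horizontal axes), for vehicle levels on the left and isoniazid minus vehicle on the right, with circles for the _at set and triangles for the _x_at set, 1 of each per strain, and a dotted line at equal change. The points rise together in both panels, and PWK/PhJ, ringed, lies at a change of -0.12 in the _at set beside -1.51 in the _a_at set.

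Serpina6, corticosteroid-binding globulin, averaged 9.88 ± 1.38 in isoniazid and 10.32 ± 1.04 in vehicle strain means (n = 31). Vehicle means were highest in PL/J, 11.55 ± 0.31, and the 3 lowest strains were C57BR/cdJ at 8.10 ± 0.15, C58/J at 7.57 ± 1.05 and PWK/PhJ at 6.87 ± 1.17. In C58/J, 1 vehicle animal had 6.01 and the others 7.93 to 8.27. In the order of vehicle means, animals of neighbouring strains overlapped in 29 of 30 pairs, and the 1 break lay between C57BLKS/J, at 9.57 ± 0.30, and C57BR/cdJ.

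Its largest falls were in PWK/PhJ, NZW/LacJ and BALB/cJ. PWK/PhJ had 5.36, 3.78, 5.69 and 3.47 after isoniazid and 8.18, 5.33, 7.11 and 6.85 after vehicle, a difference of -2.29 in which 1 vehicle animal lies among the isoniazid animals. The isoniazid values 3.78 and 3.47 lay below the lowest array median, 3.96. NZW/LacJ had 8.79, 8.14, 8.79 and 9.20 after isoniazid and 11.13, 11.37, 11.03 and 10.44 after vehicle, with no overlap and a difference of -2.26 or 4.80-fold lower. BALB/cJ had 9.55, 8.38, 9.82 and 9.20 after isoniazid and 10.92, 10.46, 11.19 and 11.15 after vehicle, again with no overlap and 3.24-fold lower. These were the 3 strains in which limma called Serpina6 lower within the strain, and it was called higher in 0 strains. The interaction of strain and isoniazid passed for Serpina6, with F = 2.52 and an adjusted p of 0.00238.

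The largest difference in the other direction, 0.30 in RIIIS/J, rests on 1 array. Its isoniazid animals had 10.61, 9.74 and 11.05, and its vehicle animals had 11.28, 7.11, 11.10 and 11.16. The same vehicle animal, the second, was the highest of all vehicle animals for Serpina10 (12.81) and Serpina3n (13.02), and had 7.75 for Serpina4-ps1 against a mean of 5.23 in the 3 others. It also had 8.01 for Car3, a carbonic anhydrase of hepatocytes, against a mean of 13.05 in the 3 others, and 14.21 for Saa1, an acute phase protein, against 12.37. Without it, an alternative chosen after its value was seen, the mean Serpina6 change over 31 strains was -0.48. On the scan date where RIIIS/J was the only strain with both treatments the Serpina6 difference was 3.50, and over the 10 dates it was lower on 6 and higher on 4.

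Serpina10, the protein Z-dependent protease inhibitor, averaged 11.21 ± 0.36 in isoniazid and 11.14 ± 0.38 in vehicle strain means. Vehicle means were highest in RIIIS/J (11.77 ± 0.79) and lowest in C58/J (9.70 ± 0.32), and neighbours in the order overlapped in all 30 pairs. The rank of RIIIS/J rests on its second vehicle animal, at 12.81. Its other vehicle animals averaged 11.43, below the CBA/J mean of 11.63. The gene was higher after isoniazid in 17 strains and lower in 14, and 3 strains were called higher by limma: NZW/LacJ, PWK/PhJ and C58/J. NZW/LacJ had 12.28, 11.89, 12.28 and 11.68 after isoniazid and 11.45, 11.18, 11.10 and 11.22 after vehicle, a difference of 0.79 with no overlap. C58/J had 10.29, 10.44, 10.33 and 10.13 after isoniazid and 9.77, 9.99, 9.24 and 9.78 after vehicle, also with no overlap. PWK/PhJ differed by 0.69, with overlapping animals. Without the animals numbered 2, 1 strain was called higher. The largest fall, -0.34 in SEA/GnJ, was not called. The interaction passed with F = 2.09 and an adjusted p of 0.022 (limma), and without PWK/PhJ it did not (adjusted p 0.0876).

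**Figure D4:**
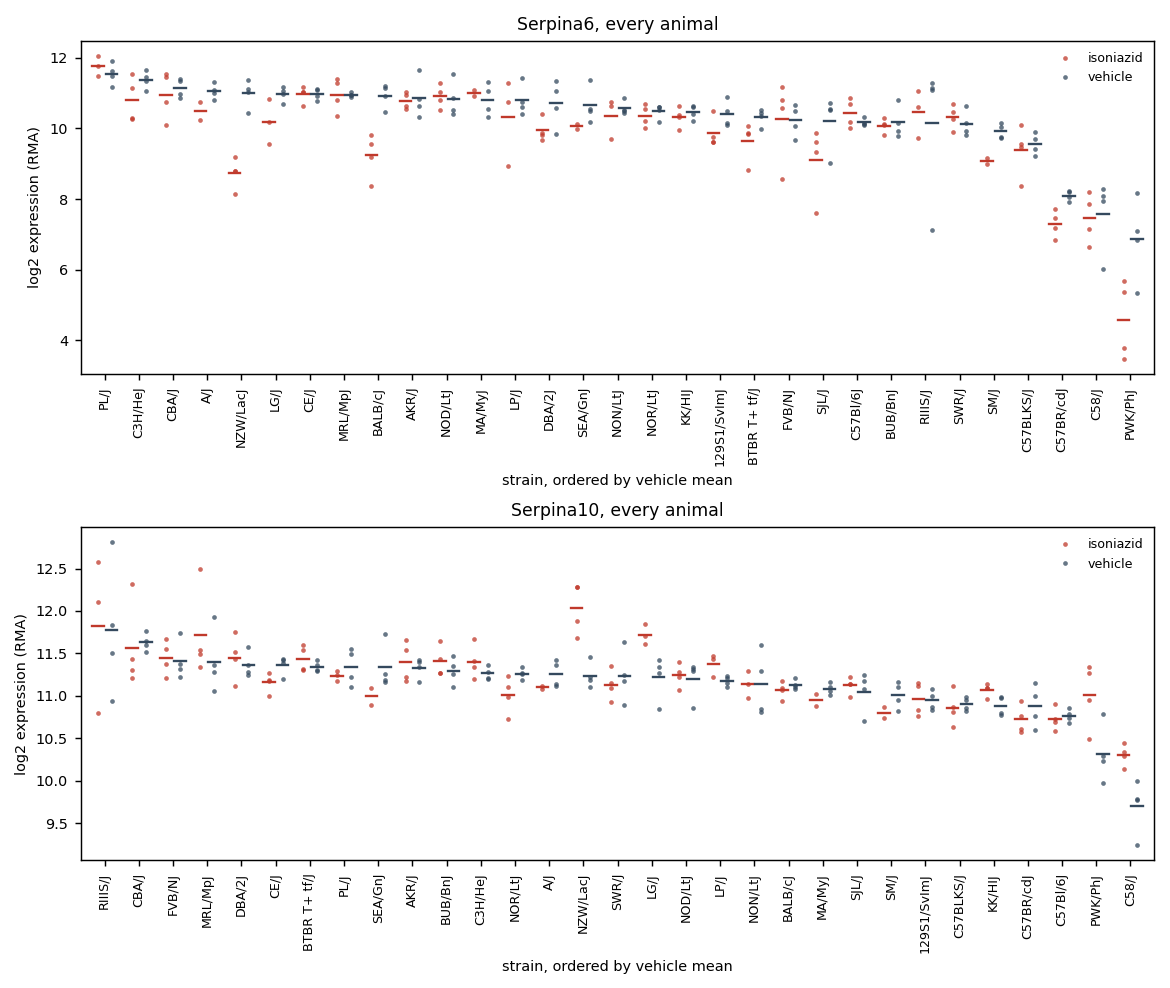
Log2 levels (vertical axes) of Serpina6 above and Serpina10 below in every animal, by strain in the order of each gene's vehicle means, with isoniazid animals left of vehicle animals and bars at the group means. NZW/LacJ isoniazid animals are low for Serpina6 (8.14 to 9.20) and high for Serpina10 (11.68 to 12.28), and 1 RIIIS/J vehicle animal lies at 7.11 for Serpina6.

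Serpina6 and Serpina10 tended to be low in the same strains. Across vehicle strain means their r was 0.76 (adjusted p 0.0006 over 20 pairs of member genes and measures, two-sided permutation test) and rho was 0.50 (adjusted p 0.089), and r was 0.44 without PWK/PhJ and C58/J, the 2 strains farthest from the median. Their changes had r = -0.49 (adjusted p 0.0445) and rho = -0.19 (adjusted p 0.626). Without PWK/PhJ and NZW/LacJ that r was -0.0011, so the negative relation rests on these 2 strains. Serpina1c and Serpina6 vehicle means had r = 0.62 (adjusted p 0.0445, rho = 0.34 with adjusted p 0.281), and without PWK/PhJ r was 0.16, so this rests on 1 strain. No other of the 20 pairs had an adjusted p under 0.05.

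Serpina1c, a copy of alpha-1 antitrypsin, was at the top of the intensity range in every strain but 1. The highest value of any probe set on any array was 14.65, so little room is left for a rise at this level. Strain means averaged 13.77 ± 1.39 in isoniazid and 13.82 ± 1.34 in vehicle animals, and without PWK/PhJ the 30 vehicle means lay between 13.78 and 14.22 (14.06 ± 0.10). PWK/PhJ had 5.97, 6.47, 6.21 and 6.64 after isoniazid and 6.72, 7.58, 6.17 and 5.92 after vehicle, below each of the other strains by more than 6 units. The probe sets that name Serpina1b alone showed no such gap, with vehicle strain means of 13.87 to 14.11 in one and 13.87 to 14.10 in the other. Nor did the probe set shared by Serpina1d and Serpina1a, at 13.02 to 13.69, or the one shared by Serpina1e, Serpina1c and Serpina1b, at 10.19 to 11.55. These comparison sets all carry the _x_at suffix, so their probes may also match other copies. Their values do not show the level of any single copy in PWK/PhJ. Why the Serpina1c probe set alone was low in PWK/PhJ was not tested.

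The largest fall of Serpina1c was in CE/J, which had 13.49, 13.44, 13.56 and 13.38 after isoniazid and 13.84, 13.82, 13.81 and 13.67 after vehicle, with no overlap and a difference of -0.32. The largest rise, 0.10, was in RIIIS/J. Limma called 1 strain within the strain, PWK/PhJ (-0.28), at the low level given above and with overlapping animals. With arrays centred on their medians, with scan date as a term, or without the animals numbered 1 or 2, 0 strains were called. The interaction did not pass over 31 strains (F = 0.98, adjusted p 0.694) and passed without PWK/PhJ (F = 2.39, adjusted p 0.00676).

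Serpina3n, the acute phase member, averaged 11.59 ± 0.46 in isoniazid and 11.41 ± 0.43 in vehicle strain means. C57BR/cdJ had the highest vehicle mean (12.56 ± 0.22), clear of the next strain, NON/LtJ, with no overlap of animals, and MA/MyJ the lowest (10.58 ± 0.19). C58/J rose most, with 12.32, 12.62, 11.57 and 11.73 after isoniazid and 10.94, 10.93, 10.91 and 11.34 after vehicle, no overlap and 2.04-fold higher. PWK/PhJ fell most, with 11.32, 10.33, 10.73 and 10.11 after isoniazid and 11.30, 11.20, 11.35 and 11.43 after vehicle, where 1 isoniazid animal lies among the vehicle animals. These were the only strains called by limma within the strain, and 0 strains were called lower without the animals numbered 2 or 4. The interaction passed (F = 2.23, adjusted p 0.0111) but not without PWK/PhJ (adjusted p 0.147). Without the animals numbered 1, the mean rise over strains was 0.12 with a limma adjusted p of 0.219.

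**Figure D5:**
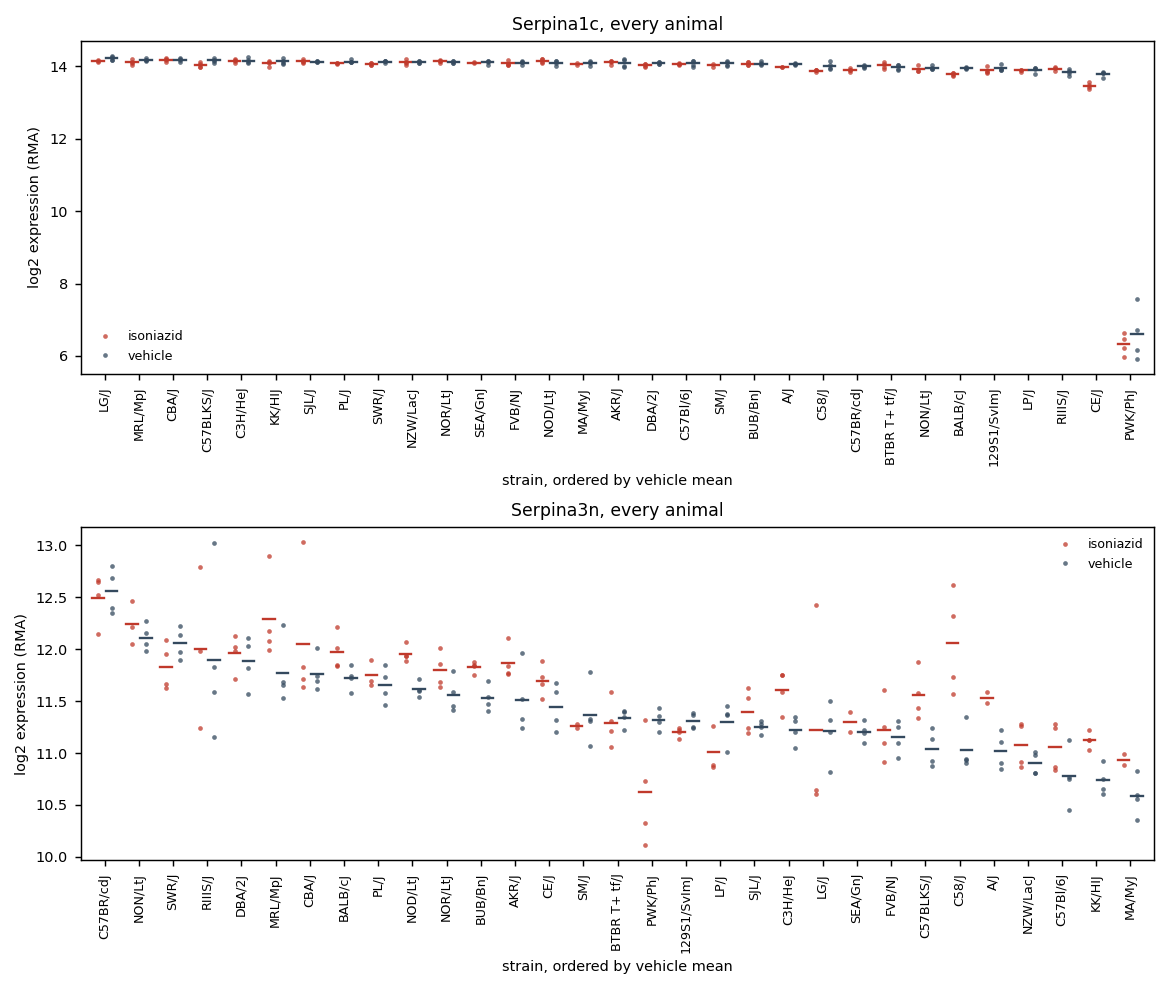
Log2 levels (vertical axes) of Serpina1c above and Serpina3n below in every animal, by strain in the order of each gene's vehicle means, with isoniazid animals left of vehicle animals and bars at the group means. Serpina1c is flat except in PWK/PhJ, where isoniazid and vehicle means are 6.32 and 6.60, and Serpina3n descends from C57BR/cdJ to MA/MyJ.

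Across the 7 member probe sets, strain differences among vehicle animals were called for all 7, where 40.8% of all probe sets were. The strain by isoniazid interaction was called for 6, all but Serpina1c, where 10.4% of all probe sets were. That count fell to between 3 and 4 when animals of 1 number were left out of every group, in fits with fewer animals. Over all probe sets, the calls fell as well, from 4661 to between 1822 and 3317. The 2 brighter Serpina4-ps1 sets passed in each of these fits. Serpina6 did not pass without the animals numbered 1 or 3, and Serpina3n and Serpina10 each failed in 3 of the 4 fits.

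The isoniazid effect did not differ detectably between steatosis and other strains for any member. The Serpina4-ps1 change averaged -1.51 ± 1.25 over the 13 steatosis strains, against -1.35 ± 1.24 over the 18 others, a difference of -0.16 with a 95% interval of -1.01 to 0.69. The Serpina6 change averaged -0.59 ± 0.74 over steatosis strains, against -0.34 ± 0.61 over the others, a difference of -0.24 (-0.70 to 0.21). Serpina3n changed by 0.16 ± 0.19 over steatosis strains and 0.18 ± 0.37 over the others, and Serpina10 by 0.07 ± 0.29 over steatosis strains and 0.07 ± 0.27 over the others. Limma called 0 of 7 member probe sets, with an adjusted p of 0.9998 for each, and 0 had an unadjusted p under 0.05, where 0% and 2.85% of all probe sets did. The intervals allow sizeable differences for Serpina4-ps1, so likeness of the groups is not shown.

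Vehicle levels were compared in the same way. Serpina10 averaged 11.27 ± 0.18 in steatosis and 11.04 ± 0.46 in other strains, a difference of 0.22 (95% interval -0.04 to 0.48), and Serpina6 averaged 10.53 ± 0.47 in steatosis and 10.18 ± 1.31 in other strains, a difference of 0.35 (-0.39 to 1.09). Limma called 0 of the 7 member probe sets for this difference and 0 at an unadjusted p under 0.05, where 0% and 3.97% of all probe sets were. With animals as replicates in place of strains, 3 members were called (Serpina1c, Serpina6 and Serpina10), but status belongs to the strain, and PWK/PhJ, with the lowest Serpina1c and Serpina6 levels, is among the other strains.

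Of the 17 other Serpina genes listed, 9 were measured by a probe set of their own, of which 1 rose, 3 fell and 5 did not pass. The median change of the 9 was -0.0054. Serpina11, a liver serpin of little known function, averaged 9.63 in isoniazid and 10.05 in vehicle strain means and was lower in 28 of 31 strains (-0.42 ± 0.32, limma adjusted p 5.5e-07). Serpina12, the adipokine vaspin, changed by -0.33 ± 0.45 (adjusted p 0.00212) in its brighter probe set and by -0.04 ± 0.21 in a dimmer one that did not pass (adjusted p 0.641), and Serpina5, the protein C inhibitor, by -0.14 ± 0.15 at a level near the bottom of the range (adjusted p 0.000414). Serpina7, thyroxine-binding globulin, averaged 3.45 in isoniazid and 3.07 in vehicle strain means, a rise of 0.38 ± 0.72 (adjusted p 0.0303), with an interaction F of 4.13 (adjusted p 1.93e-07). Its rise did not pass when any of 6 single strains or the animals numbered 1, 2 or 4 were left out (adjusted p up to 0.0746), and the fall of Serpina12 did not pass without the animals numbered 3 (0.105). Serpina1b changed by -0.0054 ± 0.0281.

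Among serpins of other clades, 13 of 15 were measured, with 0 higher and 3 lower. The 3 were Serping1, the C1 inhibitor (-0.17 ± 0.20), Serpind1, heparin cofactor II (-0.09 ± 0.14), and Serpinc1, antithrombin (-0.05 ± 0.05). Of 12 proteases and clotting factors that clade A serpins meet, 0 were higher and 6 lower, by small amounts: prothrombin F2 changed by -0.08 ± 0.06 and plasminogen (Plg) by -0.08 ± 0.07, while F10, the target of the Serpina10 protein, changed by 0.06 ± 0.13 and did not pass (adjusted p 0.124). Elane, neutrophil elastase, had 4.76 in isoniazid and 4.78 in vehicle strain means and did not pass. F10, Elane and, below, Tat and Saa1 are named after their values were seen, as was Car3 in the RIIIS/J animals.

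Of 14 liver transcription factors measured of 16 listed, 1 rose and 8 fell. Hnf4a was lower in 31 of 31 strains (-0.20 ± 0.14, limma adjusted p 1.67e-06), and Foxa3 (-0.23 ± 0.31), Stat5b (-0.13 ± 0.14) and the glucocorticoid receptor Nr3c1 (-0.13 ± 0.17) were lower as well. Of 12 genes known to respond to glucocorticoids, the hormones that the Serpina6 protein carries, 0 rose and 6 fell. Dusp1, a phosphatase of MAP kinases, changed by -0.56 ± 0.53, the cell cycle inhibitor gene Cdkn1a by -0.62 ± 0.86, and the metallothioneins Mt1 and Mt2 by -0.35 ± 0.37 and -0.55 ± 0.52, and all 4 passed. Tat, a liver enzyme gene of the same list, changed by 0.0019 ± 0.3981. In the growth hormone and STAT5 list, 8 of 10 were measured, with 0 higher and 4 lower: Ghr (-0.22 ± 0.16), Socs2 (-0.53 ± 0.58), Igfals (-0.47 ± 0.45) and Hsd3b5 (-0.68 ± 1.03).

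Of 19 acute phase genes, 0 rose and 7 fell, while Serpina3n was higher. Saa3 changed by -0.61 ± 0.56, Socs3, a feedback inhibitor of cytokine signalling, by -0.49 ± 0.53, Itih4 by -0.22 ± 0.18 and haptoglobin (Hp) by -0.13 ± 0.12, each called lower. Saa1, by contrast, changed by -0.10 ± 1.33, with single strains from -2.92 to 2.54. Of 14 genes for folding, quality control and export of secreted proteins, 5 rose and 0 fell. They included Pdia4 (0.33 ± 0.32), the export receptor Lman1 (0.26 ± 0.21, higher in 30 strains), Derl3 (0.25 ± 0.44) and calreticulin (Calr, 0.23 ± 0.40). The median change of this list was 0.09.

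Markers of the cell types of the liver were taken as a check of its makeup. Of 10 macrophage markers 6 were lower and 0 higher, with a median change of -0.21 and a mean level over the list of 6.08 to 9.13 in isoniazid and 6.44 to 8.80 in vehicle strain means. The defining markers Clec4f and Cd5l changed by -0.21 ± 0.40 and -0.28 ± 0.42. Of 5 hepatocyte markers 1 was higher (Cps1, 0.17 ± 0.13) and 0 lower, with list means of 13.51 to 13.86 in isoniazid and 13.64 to 13.86 in vehicle strain means. Called lower were also 1 of 7 neutrophil, 2 of 7 endothelial, 1 of 5 bile duct and 2 of 3 B cell markers, and 0 were called among 7 stellate, 5 T and NK and 5 pancreas markers. Neutrophil list means were 3.75 to 5.18 in isoniazid and 3.78 to 4.60 in vehicle strain means, and no list was at 0, since RMA gives every probe set a value. The part of these cell markers in the changes of the Serpina genes was not tested.

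Genes whose strain pattern was most like each member were found by Pearson r over the 31 strain means, as a description. For Serpina6 vehicle levels these were Car3 (r = 0.92), Ebpl (0.92) and Akr1c20 (0.91), and all 3 stayed at 0.87 or above without PWK/PhJ. For the Serpina6 change they were Nat8f1 (0.89), Ces1f (0.88) and Ugt2a3 (0.88). Serpina10 vehicle levels were most like Gjb1, a gap junction gene (0.89), Serpind1, another serpin of coagulation (0.89), and Ctsb (0.86). Its change was most like that of Krt8 (0.85), Gnb1 (0.82) and Hnrnpc (0.81).

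For Serpina3n, the vehicle levels most alike were those of AA986860 (0.74), 4933432K03Rik (0.72) and Gpr179 (0.69), and the changes most alike were those of Cpn2 (0.81), Lrg1 (0.80) and Dus4l (0.77). Serpina4-ps1 vehicle levels were most like Malt1 (0.66), Faf2 (0.65) and its relative Serpina5 (0.64), and its change was most like Malt1 (0.78), Klhl7 (0.74) and Tut7 (0.72). For Serpina1c the leading vehicle matches, Wfdc21 (0.99), Mff (0.98) and 0610012G03Rik (0.96), had r of -0.34, 0.09 and 0.06 without PWK/PhJ, so each match was PWK/PhJ alone. Its change was most like that of Cbln1 (0.68), Orm1 (0.67) and Lair1 (0.64). These points share their arrays, and all 31 strains enter each r.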

How the data were processed

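The submitters' processing notes name Affymetrix Power Tools and RMA. Versions and a genome build are not given in the sources used. The authors deposited log2 expression values from RMA, 1 per probe set. RMA gives all arrays the same distribution, which takes out any change that all genes share, and it narrows differences at low levels. Of 44721 probe sets, 60 controls were left out. Probe sets were named through the supplied platform annotation, and only those with 1 symbol were named (34717 probe sets, 18146 genes). Annotation dates from the platform and can be old.

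Strain means were computed per treatment, and the 31 differences (isoniazid minus vehicle) were tested with limma 3.58.1 (R 4.3.3) over strains and between steatosis and other strains, as were vehicle means. Strain differences, the strain by isoniazid interaction and changes within strains came from a limma fit of 62 groups with animals as replicates (173 residual degrees of freedom). P-values are two-sided and adjusted by Benjamini-Hochberg over 44661 probe sets. No filter on dim probe sets was applied. A gene with several probe sets is given by the one with the highest mean. Fits were tested on simulated data. Correlations used two-sided permutation tests (scipy 1.17.1). Promoter windows were searched on both strands. Precision is limited by the number of arrays.

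The members and gene lists were chosen with earlier results of these data known. Named are all member probe sets, the strains with extreme levels and changes, other Serpina genes, up to 4 genes per list with the largest t, and the 3 most alike genes per member. Alternatives covered the unit, scan date, centring, dim probe sets, weights, eBayes settings, animals as replicates, left-out animals, strains and arrays, a block by animal number and a 1.5-fold threshold.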

Additional observations from a re-analysis of the deposited data

Results flagged for a closer look

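The 29 groups of 4 animals checked were of the strains with each member's highest or lowest vehicle mean, largest rise or largest fall. Other groups named in the text were not checked. By Dixon's criterion (95% value), chance flags about 1 in 20 groups picked without regard to their values. The 29 were picked by their values, so their count cannot be set against that share. Of the 29, 5 held an animal far from the others by this criterion. They were Serpina3n in C58/J vehicle animals (1 animal at 11.34), Serpina4-ps1 in BALB/cJ isoniazid animals (2.36) and in BALB/cJ vehicle animals (2.44), Serpina6 in RIIIS/J vehicle animals (7.11) and Serpina10 in SEA/GnJ vehicle animals (11.73). The isoniazid effect differed between strains, by limma's interaction test, for 6 member probe sets: Serpina3n (F = 2.23), the _a_at (F = 3.59), _at (F = 3.61) and _x_at (F = 2.50) probe sets of Serpina4-ps1, Serpina6 (F = 2.52) and Serpina10 (F = 2.09).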

How the results depend on the processing

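Of the results that passed in a comparison, 0 reversed direction. The steatosis minus other differences, which did not pass over strains, could change sign when single strains or animals of 1 number were left out. For the Serpina4-ps1 change they ran from -0.44 to 0.05, and for the Serpina6 change from -0.36 to -0.09. With a 1.5-fold change required as well, 0 member probe sets were called higher, and Serpina3n (0.17) and Serpina6 (-0.45) no longer passed; over all probe sets 30 were higher and 62 lower. With 1 probe set per gene 2 members were lower and 13 pairs of member and strain were called lower, and without dim probe sets 2 and 12. In both, 2 of the 3 Serpina4-ps1 sets leave the fit. The _a_at set, which stays, was called lower in 8 and 7 strains, against 6 in the main fit. With animals as replicates Serpina1c passed (-0.0503, adjusted p 0.0165) and vehicle levels by status were called for 3 members. Leaving out animals of 1 number or single strains gave 0 to 1 members higher and 4 lower, mean changes of 0.12 to 0.21 for Serpina3n, -1.49 to -1.32 for Serpina4-ps1 and -0.50 to -0.38 for Serpina6. Leaving out animals of 1 number gave 3 to 4 interaction calls, and 8 to 13 within-strain calls lower and 2 to 3 higher, and leaving out PWK/PhJ gave 5, 18 and 3. Without the second vehicle animal of RIIIS/J there were 6 interaction calls and 22 within-strain calls lower and 4 higher. Serpina10's interaction did not pass without narrow-spread arrays (adjusted p 0.119). The cause of these changes was not tested, and some of these fits held fewer probe sets or animals. Animals of the same number did not pair: over 111 pairs the median correlation of deviations was -0.02 (-0.36 to 0.74), with 20 over 0.1. With the animal number as a replicate block the changes were -1.42 for Serpina4-ps1, -0.41 for Serpina6 and 0.16 for Serpina3n, and 1 member was higher and 4 lower.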
